A study of Saccharomyces cerevisiae with 7 samples.

Results

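Lariat reads of yeast carrying prp8-V1870N were compared with those of yeast carrying prp8-N1869D, a mutation of the neighbouring residue of Prp8. The members are 4 of the 7 libraries of the series, chosen by their labels: 1 prp8-V1870N library and 3 prp8-N1869D libraries. The first prp8-N1869D sample is 1 library, and the second biological sample was sequenced as 2 technical libraries, which were summed, so that 1 sample stands against 2. PRP8-WT, with 1 library, gives the level without a mutation. All strains are Saccharomyces cerevisiae of mating type a (his3 leu2 ura3 lys2) with dbr1::Kan and with the chromosomal gene replaced by prp8D::LYS2. Each carried its PRP8 allele, prp8-V1870N, prp8-N1869D or PRP8-WT, on the plasmid pRS313 and was grown in rich medium at 30 degrees. Because the wild-type strain also lacks DBR1, none of the samples shows lariat levels in cells that can debranch.

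Prp8 is the largest protein of the spliceosome and holds the 5' splice site, the branch point and the catalytic RNAs together. The mutated residues lie in its RNaseH-like domain, which changes conformation between the steps of splicing, and alleles there are known for altering splice site fidelity. In the first step of splicing the branch point adenosine attacks the 5' splice site and the intron becomes a lariat. Dbr1 opens the branch bond of released lariats, so in its absence excised introns accumulate, and the RNA left after RNase R digestion of linear molecules is rich in them. Each counted read is taken to cross a branch and so names 1 pair, made of a 5' splice site and the nucleotide it was joined to. Whether every counted read does cross a branch was not tested. A lariat count follows the transcription of a gene, how often its intron is branched and how long the lariat lasts, which cannot be told apart in these data. The reads carry no sequence of PRP8 itself in these tables, so the alleles could not be checked against the counts.

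The prp8-V1870N library held 1931509 lariat reads, of which 1550133 matched annotated introns. The first and second prp8-N1869D samples held 1222720 and 1366461 lariat reads, with 993122 and 1105661 annotated reads, and PRP8-WT held 3517283 and 3042633. The second prp8-N1869D sample combines technical libraries of 713781 and 652680 reads. The tables list 280 annotated introns of 270 genes, and rates below are set against a sample's own annotated reads. Intervals beside shares are exact binomial ones at 95%. They reflect counting error alone, since reads without molecular identifiers are not independent molecules. A permutation of 1 sample against 2 has 3 arrangements and cannot go below a one-sided p of 0.333, so class rates are given without a test. Spread between cultures can be read only from the gap between the 2 prp8-N1869D samples.

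The neighbouring mutations differed in pairs that belong to no annotated intron and whose ends lie far apart. Pairs over 1000 nt made up 6.67 reads per 100 annotated reads in prp8-V1870N, against 4.77 and 4.95 in prp8-N1869D and 1.34 in PRP8-WT. The prp8-V1870N rate was 1.40 and 1.35 times that of the first and second prp8-N1869D sample, and those samples differed from each other by 1.04-fold. The technical libraries differed by 1.15-fold in this class. The 1016 distant pairs with at least 20 reads over the 3 samples stood at 4.24 in prp8-V1870N, against 2.74 and 2.83 in prp8-N1869D. The 71950 distant pairs with fewer reads stood at 2.43 in prp8-V1870N, against 2.03 and 2.12 in prp8-N1869D, folds of 1.20 and 1.15. For those 71950 pairs the technical libraries stood at 1.93 and 2.32, a spread about as large as that excess. Pairs of over 200 and up to 1000 nt stood at 1.71 in prp8-V1870N, against 1.26 and 1.20 in prp8-N1869D and 0.622 in PRP8-WT. Pairs within the mitochondrial genome stood at 0.717 in prp8-V1870N, against 0.407 and 0.431 in prp8-N1869D and 0.185 in PRP8-WT, which was 1.76 and 1.66 times the first and second prp8-N1869D sample. In these 3 classes prp8-V1870N lay above both prp8-N1869D samples by more than the gap between them.

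Short pairs were lower in prp8-V1870N, by a margin that depends on what they are set against. Pairs of up to 200 nt outside annotated introns stood at 4.75 reads per 100 annotated reads in prp8-V1870N, against 5.36 and 5.57 in prp8-N1869D and 3.56 in PRP8-WT. Mirror images, which have the ends of an annotated intron swapped on the other strand, stood at 6.98 in prp8-V1870N, against 7.46 and 7.39 in prp8-N1869D and 6.66 in PRP8-WT. Set against annotated reads, both classes were below both prp8-N1869D samples by more than their gap. Set against annotated reads outside ribosomal protein genes, short pairs were 0.949 and 1.003 times as frequent as in the first and second sample, and so no longer below both. Mirror images were 0.936 and 0.945 times as frequent, a difference smaller than the 1.08-fold between the technical libraries in that class. All unannotated reads together came to 24.6 per 100 annotated reads in prp8-V1870N, against 23.1 and 23.6 in prp8-N1869D and 15.6 in PRP8-WT. That 1.06-fold and 1.04-fold difference was no larger than the 1.08-fold between the technical libraries of 1 sample.

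**Figure D1:**
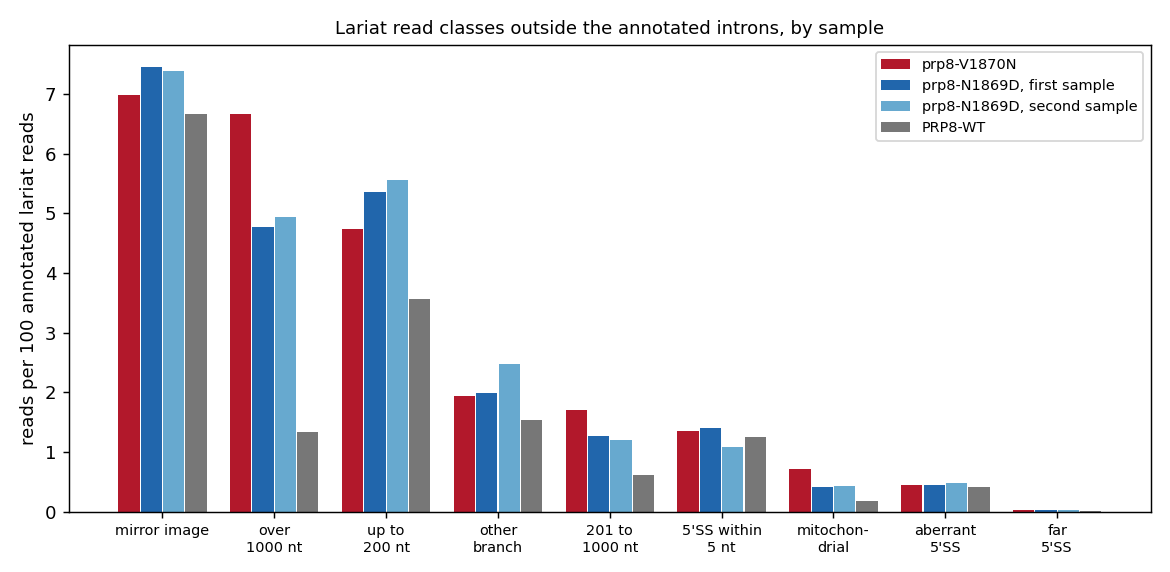
Reads of each class outside the annotated introns per 100 annotated reads, 1 bar per sample, with technical libraries summed. Pairs over 1000 nt stand at 6.67 in prp8-V1870N, against 4.77 and 4.95 in prp8-N1869D and 1.34 in PRP8-WT, while pairs of up to 200 nt are lower in prp8-V1870N than in both prp8-N1869D samples.

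Other branch points and slightly shifted 5' splice sites did not stand apart from both prp8-N1869D samples by more than their gap. Reads that join an annotated 5' splice site to another branch point stood at 1.93 per 100 annotated reads in prp8-V1870N, against 1.99 and 2.47 in prp8-N1869D and 1.54 in PRP8-WT. Reads with a 5' splice site within 5 nt of the annotated one stood at 1.35 in prp8-V1870N, between the 1.40 and 1.08 of prp8-N1869D, with 1.25 in PRP8-WT. Of 174 introns with at least 20 reads at other branch points over the 3 samples, 1 (0.575%) lay above both prp8-N1869D samples and 2 (1.15%) below both. The higher one was ECM33, which encodes a cell wall protein, with 1.73% of reads at other branch points in prp8-V1870N, against 0.766% and 1.05% in prp8-N1869D and 0.541% in PRP8-WT. The lower ones were RPS6B, with 1.48% in prp8-V1870N, against 2.72% and 3.48% in prp8-N1869D, and RPS8B, with 2.16%, against 2.93% and 3.11%, all 3 being named after their values were seen. Within annotated introns, the branch fell on the listed nucleotide in 42.6% of reads in prp8-V1870N, against 42.5% and 43.1% in prp8-N1869D and 42.4% in PRP8-WT. Thinned to 1222720 lariat reads each, prp8-V1870N had 39794 distinct unannotated pairs, against 36756 and 36218 in prp8-N1869D and 24251 in PRP8-WT. This was 1.08 and 1.10 times the number in the first and second prp8-N1869D sample. Distinct mitochondrial pairs numbered 1840 in prp8-V1870N, against 1432 and 1389 in prp8-N1869D and 645 in PRP8-WT, and distant ones 18386, against 16005 and 16792 in prp8-N1869D and 5953 in PRP8-WT.

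Aberrant 5' splice sites, which join an annotated branch point from more than 5 and less than 1000 nt away from the annotated 5' splice site, were used about as often by both mutants. They stood at 0.448 reads per 100 annotated reads in prp8-V1870N, against 0.453 and 0.477 in prp8-N1869D and 0.421 in PRP8-WT. The prp8-V1870N rate was 0.989 and 0.940 times that of the first and second prp8-N1869D sample, which differed from each other by 1.05-fold, so it was not below both by more than their gap. Split by position, sites inside the intron stood at 0.399 in prp8-V1870N, against 0.414 and 0.441 in prp8-N1869D and 0.384 in PRP8-WT. Sites upstream of the annotated one stood at 0.0485 in prp8-V1870N, against 0.0388 and 0.0359 in prp8-N1869D and 0.0371 in PRP8-WT. Upstream sites of 1000 nt or more, which lie outside the definition of aberrant sites, stood at 3.69 per 10000 annotated reads in prp8-V1870N, against 2.28 and 2.26 in prp8-N1869D and 1.03 in PRP8-WT.

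**Figure D2:**
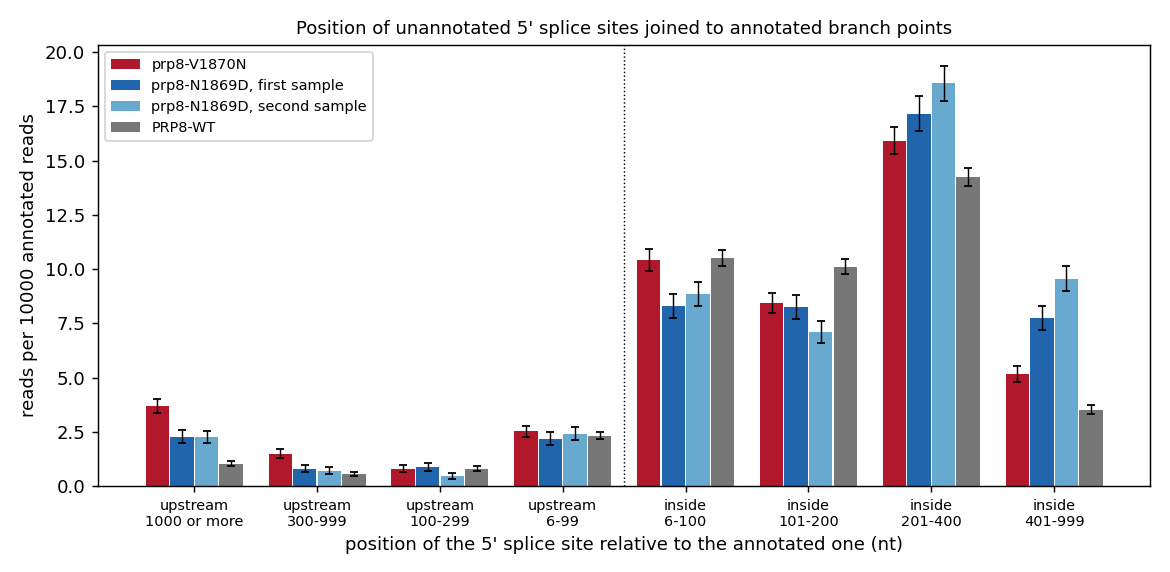
Reads of unannotated 5' splice sites joined to annotated branch points, per 10000 annotated reads, by distance from the annotated 5' splice site, with upstream sites left of the dotted line and sites inside the intron right of it. Bars are samples and error bars exact binomial 95% intervals. Sites 1000 nt or more upstream stand at 3.69 in prp8-V1870N, against 2.28 and 2.26 in prp8-N1869D, and sites over 400 nt inside at 5.16, against 7.74 and 9.56.

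Of 68 introns with at least 20 aberrant reads over the 3 samples, the interval of the aberrant share lay above both prp8-N1869D samples in 1 intron (1.47%) and below both in 1 (1.47%). Without regard to intervals, 17 introns (25%) were higher than both and 29 (42.6%) lower, with median log2 ratios of -0.06 and -0.22. By comparison, the second prp8-N1869D sample lay apart from the first in 9 introns, 7 higher (10.3%) and 2 lower (2.94%). edgeR's quasi-likelihood test of the ratio of aberrant to annotated reads called 0 of the 68 (0.00%) at an adjusted p of 0.05, with 2 higher (2.94%) and 3 lower (4.41%) at an unadjusted p under 0.05. Its spread rests on 1 residual degree of freedom, moderated across introns, and the lone prp8-V1870N sample is assumed to vary like prp8-N1869D.

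RPL6B, which encodes a protein of the large ribosomal subunit, was the intron that lay above both. Its aberrant share was 1.34% in prp8-V1870N (interval 1.09% to 1.63%), against 0.361% (0.187% to 0.630%) and 0.227% (0.0912% to 0.466%) in prp8-N1869D and 0.0222% in PRP8-WT. These are 96 aberrant reads in prp8-V1870N, 12 and 7 in prp8-N1869D and 5 in PRP8-WT. The intron reached the minimum number of aberrant reads only through prp8-V1870N, the strain in which its share was higher. In edgeR the log2 ratio was 2.19 ± 0.50 (SE), with an adjusted p of 0.0696. The reads came almost wholly from a site 943 nt further upstream, between genes, with 95 reads in prp8-V1870N, 12 and 7 in prp8-N1869D and 3 in PRP8-WT. The sequences below are from the RefSeq genome of build R64, 5' to 3', and the capitals mark the first 6 bases after the cut. The pair is shown because the upstream site carried the difference in this intron.
RPL6B upstream site, chrXII:1027916-1027945, plus strand: gatccgaatgGTATACtcttttgctagctc
RPL6B annotated site, chrXII:1028859-1028888, plus strand: tgcccaacaaGTATGTgtaaagatgagtaa

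The second intron of RPS22B, which carries a small nucleolar RNA inside a gene of the small ribosomal subunit, lay below both. Its aberrant share was 31.2% in prp8-V1870N (29.2% to 33.3%), against 47.6% (44.8% to 50.4%) and 51.6% (49.2% to 54.0%) in prp8-N1869D and 21.1% in PRP8-WT. The annotated reads of the intron came to 894 reads per 1000000 annotated reads (RPM) in prp8-V1870N, against 675 and 741 in prp8-N1869D and 1008 in PRP8-WT. Its log2 ratio in edgeR was -1.12 ± 0.51 (SE), with an adjusted p of 0.633. All 628 aberrant reads of prp8-V1870N lay 414 nt inside the intron, as did the 608 and 872 of prp8-N1869D.

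Among 69 single positions with at least 20 reads, 1 (1.45%) lay above both prp8-N1869D samples. It was the RPL6B site, which reached 20 reads only through prp8-V1870N. Another 3 (4.35%) lay below both. Besides the RPS22B position, these were in RPL16B and NHP6B, named here after their values were seen. RPL16B, of the large subunit, had 343 reads per 10000 annotated reads of its own intron at the position 341 nt inside it in prp8-V1870N, against 561 and 946 in prp8-N1869D and 268 in PRP8-WT. NHP6B, which encodes a DNA-bending protein of chromatin, had 64.1 at 269 nt inside in prp8-V1870N, against 147 and 423 in prp8-N1869D and 43.4 in PRP8-WT. At both of these sites the prp8-N1869D samples were further from each other than the nearer one was from prp8-V1870N. The 3 inner sites whose intervals lay below both each open with GTA, as their annotated counterparts do.
RPS22B inner site, chrXII:856979-857008, plus strand: tttttatgaaGTAAGCaaaaatttcgaatc
RPS22B annotated site of the same intron, chrXII:856565-856594, plus strand: caaaagcatgGTATGTtccaactatttttc
RPL16B inner site, chrXIV:494613-494642, minus strand: acaccaaaaaGTAATGgtaacttctaatca
RPL16B annotated site, chrXIV:494954-494983, minus strand: gttattgatgGTACGTaaaaaatttctaat
NHP6B inner site, chrII:426585-426614, minus strand: gctttctactGTAGTAtcctctaaaggact
NHP6B annotated site, chrII:426854-426883, minus strand: ttttcgcaaaGTATGTaaggcgctgggtga

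The 10 introns with the most aberrant reads held 71.9% of them in prp8-V1870N, against 74.3% and 74.3% in prp8-N1869D and 73.6% in PRP8-WT. For NHP6B as a whole the aberrant share was 24.5% in prp8-V1870N, against 25.3% and 50.2% in prp8-N1869D and 13.6% in PRP8-WT. The prp8-V1870N value was close to the first prp8-N1869D sample only, so that the difference does not hold against both. RPL22B, of the large subunit, had 26.8% in prp8-V1870N, against 25.4% and 37.3% in prp8-N1869D and 25.5% in PRP8-WT. GCR1, which encodes an activator of glycolytic genes, was mostly branched from other 5' splice sites in every sample, with 86.3% in prp8-V1870N, 90.3% and 88.1% in prp8-N1869D and 84.5% in PRP8-WT. Its annotated reads were few, 32 in prp8-V1870N, 17 and 21 in prp8-N1869D and 47 in PRP8-WT.

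The other 6 of these introns belong to ribosomal protein genes, and none lay apart from both. RPL22A had an aberrant share of 7.55% in prp8-V1870N, against 7.82% and 7.53% in prp8-N1869D and 8.14% in PRP8-WT. RPL40B, which encodes a ubiquitin fusion, had 4.71% in prp8-V1870N, against 4.91% and 5.33% in prp8-N1869D and 3.97% in PRP8-WT. RPS26A had 4.06%, against 4.76% and 5.74% in prp8-N1869D and 2.25% in PRP8-WT. RPL2B had 4.03% in prp8-V1870N, against 5.06% and 6.40% in prp8-N1869D and 3.41% in PRP8-WT. In both introns the interval of prp8-V1870N was apart from the second prp8-N1869D sample and not from the first. RPL24B had 1.39% in prp8-V1870N, against 1.14% and 0.512% in prp8-N1869D and 1.80% in PRP8-WT. RPS21B had 5.45% in prp8-V1870N, between the 5.02% and 6.66% of prp8-N1869D, and both mutants were above the 1.27% of PRP8-WT.

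The RPS21B reads concern the sequence of aberrant sites, because the main site does not begin with GT. It lies 89 nt inside the intron and had 455 reads in prp8-V1870N, against 156 and 232 in prp8-N1869D and 208 in PRP8-WT. GT opened 90.3% of aberrant reads in prp8-V1870N (89.6% to 91.0%), against 94.2% and 93.4% in prp8-N1869D and 96.3% in PRP8-WT. Without that single position the shares were 96.7% in prp8-V1870N, 97.6% and 97.7% in prp8-N1869D and 97.9% in PRP8-WT. Counted by site, GT opened 78.3% of 391 sites in prp8-V1870N, with an interval of 73.8% to 82.2%, against 82.5% of 315 and 85.8% of 303 in prp8-N1869D and 77.7% of 506 in PRP8-WT. The site intervals of the mutants overlapped.
RPS21B inner site, chrX:157141-157170, minus strand: cgacagaaaaATAAAAttataataagttaa
RPS21B annotated site, chrX:157230-157259, minus strand: gggtcaattaGTACGTaaattatagcagat

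**Figure D3:**
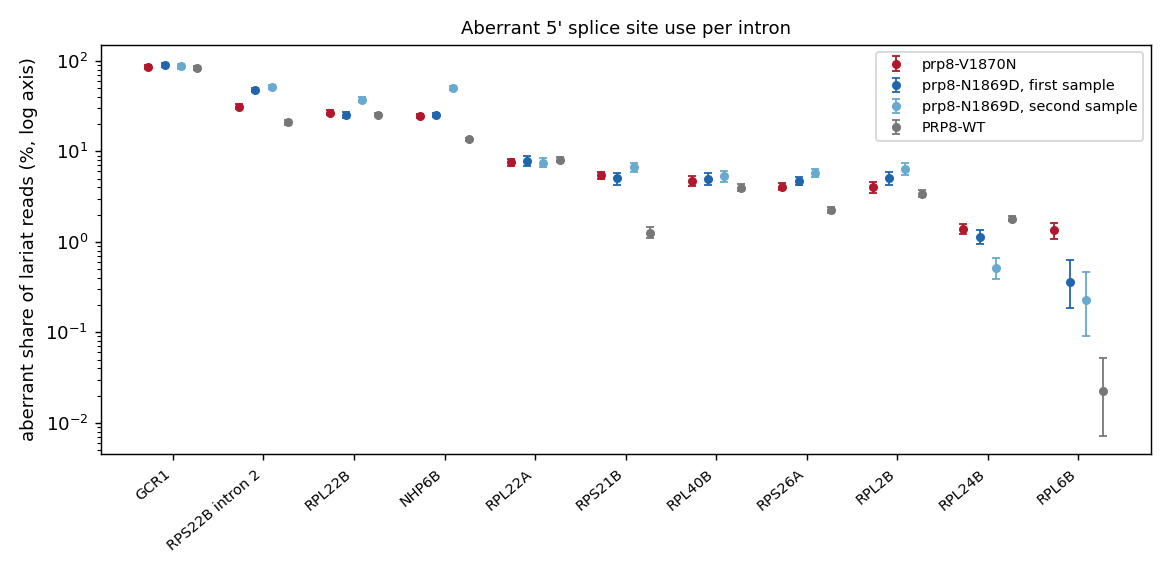
Aberrant share of lariat reads (log axis) in the 10 introns with the most aberrant reads and in RPL6B, with exact binomial 95% intervals, 1 point per sample. RPL6B is higher in prp8-V1870N than in both prp8-N1869D samples (1.34% against 0.361% and 0.227%), the second intron of RPS22B is lower (31.2% against 47.6% and 51.6%), and NHP6B shows the 2 prp8-N1869D samples far from each other.

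Far upstream sites joined to the branch point of RPL25, of the large subunit, were found mainly in prp8-V1870N among these samples. Joins from 300 nt or more upstream numbered 110 reads in prp8-V1870N, against 4 and 5 in prp8-N1869D and 2 in PRP8-WT. Per 10000 annotated reads this was 0.710 in prp8-V1870N, against 0.0403 and 0.0452 in prp8-N1869D and 0.00657 in PRP8-WT. The site 3144 nt upstream had 56 reads in prp8-V1870N, 1 and 3 in prp8-N1869D and 2 in PRP8-WT. The site 2135 nt upstream had 27 reads in prp8-V1870N and 0 in the other samples, where a count of 0 allows up to 3 reads. The site 1561 nt upstream had 17 reads in prp8-V1870N, 3 and 2 in prp8-N1869D and 0 in PRP8-WT. Each of these sites reached a minimum of 20 reads only through prp8-V1870N. The first 2 lie between genes and open with the hexamer of the annotated RPL25 site, which is why they are shown.
RPL25 site 3144 nt upstream, chrXV:77207-77236, plus strand: cccattttttGTATGTtttttcgtttattg
RPL25 site 2135 nt upstream, chrXV:78216-78245, plus strand: ttagataggaGTATGTacattccaatatat
RPL25 site 1561 nt upstream, chrXV:78790-78819, plus strand: tatttgagttGTATAAtccttcgaatttag
RPL25 annotated site, chrXV:80351-80380, plus strand: gctccatctgGTATGTgaactgcaatatta

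Over all introns, sites 300 nt or more upstream stood at 5.19 reads per 10000 annotated reads in prp8-V1870N, against 3.08 and 2.97 in prp8-N1869D and 1.59 in PRP8-WT. Without RPL25 and RPL6B they stood at 3.85 in prp8-V1870N, against 2.92 and 2.86 in prp8-N1869D and 1.57 in PRP8-WT. The fold over the first and second prp8-N1869D sample was then 1.32 and 1.35, in place of 1.68 and 1.75. TEF4, which encodes a translation elongation factor subunit, had the most reads over the 3 samples at a single site 1000 nt or more upstream, with 56 in prp8-V1870N, 19 and 22 in prp8-N1869D and 3 in PRP8-WT. Per 10000 annotated TEF4 reads this was 58.7 in prp8-V1870N, against 27.5 and 29.3 in prp8-N1869D and 1.90 in PRP8-WT, with intervals not apart from both.

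Use of the annotated introns differed by the length of the lariat, measured from 5' splice site to branch point. Of all 280 introns, 83 (29.6%) had a higher share of annotated reads in prp8-V1870N than in both prp8-N1869D samples and 134 (47.9%) a lower one. Introns with few reads are included in these counts. Of the 124 introns of 200 nt or more, 75 were higher than both and 23 lower. Of the 156 shorter introns, 8 were higher than both and 111 lower. By more than the gap between the prp8-N1869D samples, 51 introns (18.2%) were higher and 84 (30.0%) lower. edgeR's quasi-likelihood test called 0 of 264 introns (0.00%) at an adjusted p of 0.05, and the lowest adjusted p was 0.398. At an unadjusted p under 0.05 it gave 11 higher (4.17%) and 18 lower (6.82%), and all 11 were in lariats of 200 nt or more and all 18 in shorter ones. With DESeq2's size factors in the same fit that split was 22 higher and 10 lower, scaled to total annotated reads it was 7 and 28, and DESeq2 itself called 0, with 22 higher and 6 lower at an unadjusted p under 0.05.

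Ribosomal protein genes, which hold most of the long introns of yeast, made up 61.4% of annotated reads in prp8-V1870N, against 58.6% and 54.6% in prp8-N1869D and 66.8% in PRP8-WT. Of their 103 introns, 62 were higher than both prp8-N1869D samples and 17 lower. The median log2 ratio was 0.19 against the first sample and 0.28 against the second, beside -0.19 and -0.15 over all introns. Of the 24 introns of 200 nt or more in other genes, 13 were higher than both and 8 lower, with medians of 0.14 and 0.25. Of the 69 introns under 60 nt in other genes, 2 were higher and 52 lower, with medians of -0.50 and -0.65. Of the 84 from 60 to under 200 nt, 6 were higher and 57 lower, with medians of -0.34 and -0.38. By reads, those under 60 nt held 8.13% in prp8-V1870N, against 8.14% and 10.9% in prp8-N1869D and 4.56% in PRP8-WT. Their summed share was thus about that of the first prp8-N1869D sample. Those from 60 to under 200 nt held 26.2% in prp8-V1870N, against 29.2% and 30.6% in prp8-N1869D and 23.3% in PRP8-WT. In each of these groups the edgeR median had the same sign under TMM scaling, DESeq2's size factors and scaling to total annotated reads, which moved the median over all introns between -0.03 and -0.19. The 2 prp8-N1869D samples also differed by length, with medians of 0.29 for the second over the first under 60 nt and -0.15 in ribosomal protein introns of 200 nt or more.

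**Figure D4:**
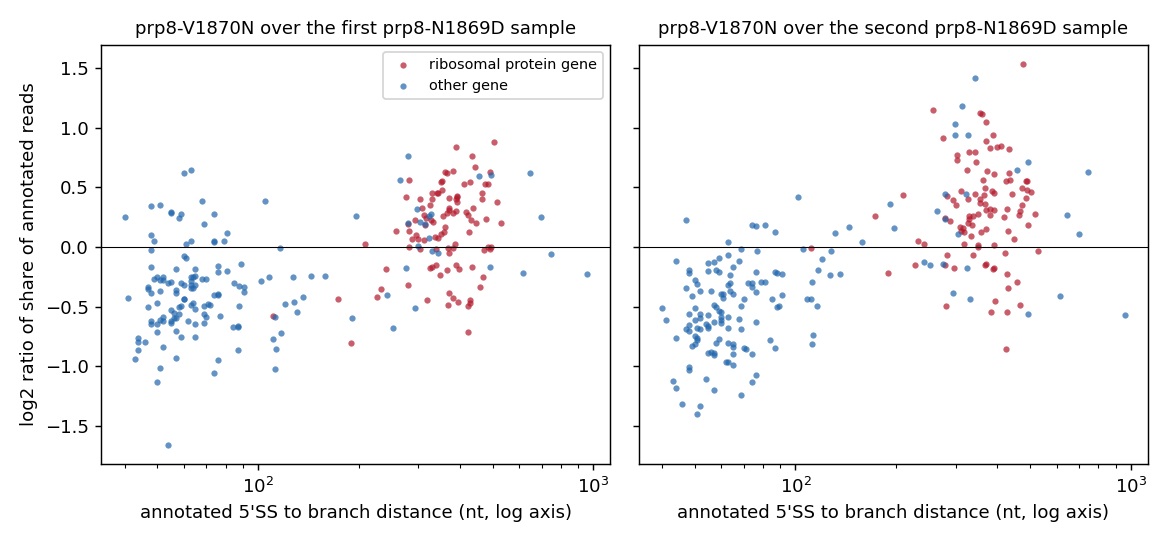
Log2 ratio of an intron's share of annotated reads, prp8-V1870N over the first (left) and the second (right) prp8-N1869D sample, against the distance from 5' splice site to branch point (log axis), 1 point per intron with at least 50 reads over the 3 samples. Most introns under 200 nt lie below 0 in both panels and most longer ones above it. The panels share the prp8-V1870N library.

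The largest folds among the long introns were in ribosomal protein genes, and none passed the test. RPL20B had 4313 RPM in prp8-V1870N, against 2413 and 2256 in prp8-N1869D and 6196 in PRP8-WT, a log2 fold change of 0.97 ± 0.31 (SE) in edgeR with an adjusted p of 0.398. RPS18B had 3404 in prp8-V1870N, against 2199 and 1575 in prp8-N1869D and 6474 in PRP8-WT. RPS21B had 5276, against 3106 and 2992 in prp8-N1869D and 5738 in PRP8-WT. In these 3 introns prp8-V1870N lay between both prp8-N1869D samples and PRP8-WT. RPS19A had 3559, against 2549 and 1633 in prp8-N1869D and 5411 in PRP8-WT, and RPL33B 3777, against 3210 and 1301 in prp8-N1869D and 6600 in PRP8-WT. RPL19B had 2095 in prp8-V1870N, against 1534 and 1203 in prp8-N1869D and 3170 in PRP8-WT, and RPS8A 14127, against 12388 and 11941 in prp8-N1869D and 15876 in PRP8-WT. These 2 lead the list of ribosomal protein genes and likewise lay between prp8-N1869D and PRP8-WT. For RPL33B the prp8-N1869D samples were further from each other than the nearer one was from prp8-V1870N.

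The largest folds downward were in short introns. YML6, which encodes a protein of the mitochondrial ribosome, had 578 RPM in prp8-V1870N, against 1202 and 1270 in prp8-N1869D and 359 in PRP8-WT, a log2 fold change of -1.01 ± 0.33 (SE) with an adjusted p of 0.398 in edgeR. COF1, which encodes the actin-severing protein cofilin, had 409 in prp8-V1870N, against 711 and 1021 in prp8-N1869D and 183 in PRP8-WT. MOB1, whose product binds the mitotic exit kinase, had 74.8, against 134 and 189 in prp8-N1869D and 47.3 in PRP8-WT. Again prp8-V1870N lay between prp8-N1869D and PRP8-WT in all 3. USV1, which encodes a zinc finger transcription factor, had 12.9, against 26.2 and 34.4 in prp8-N1869D and 9.86 in PRP8-WT, resting on 20 reads in prp8-V1870N and 26 and 38 in prp8-N1869D. YCL012C had 11.6, against 37.3 and 25.3 in prp8-N1869D and 11.2 in PRP8-WT, resting on 18 reads in prp8-V1870N and 37 and 28 in prp8-N1869D.

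Over all 280 introns 29.6% were higher than both prp8-N1869D samples and 47.9% lower. Counts of the other gene lists are given beside these shares, with nothing read from a list near them. Most of these lists hold mainly short lariats, with medians of 68.5 nt for actin and tubulin and 73.5 nt for ubiquitin and proteasome. Vesicle traffic lariats run from 48 to 128 nt. Of the 156 introns under 200 nt, 8 were higher and 111 lower, with medians of -0.40 and -0.49. A part of gene function apart from length was not tested. In genes of the actin and tubulin cytoskeleton, 1 of 12 introns was higher than both prp8-N1869D samples and 9 lower, with medians of -0.30 and -0.64. The higher one was the long intron of ACT1, which encodes actin, at 10065 RPM in prp8-V1870N, against 6831 and 8180 in prp8-N1869D and 11229 in PRP8-WT. In vesicle traffic 0 of 16 were higher and 13 lower, with medians of -0.47 and -0.47. There SAR1, the GTPase of vesicle coats leaving the endoplasmic reticulum, had 2224 in prp8-V1870N, against 3102 and 2386 in prp8-N1869D and 2597 in PRP8-WT, and SEC14, a phospholipid transfer protein, 509 against 512 and 719, with 449 in PRP8-WT. In ubiquitin and proteasome genes 1 of 10 was higher and 7 lower, with medians of -0.44 and -0.44. The ubiquitin-conjugating enzyme UBC4 had 4375 in prp8-V1870N, against 6471 and 6178 in prp8-N1869D and 3778 in PRP8-WT, and its close relative UBC5 25.8, against 49.3 and 59.7 in prp8-N1869D and 18.7 in PRP8-WT.

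Of 20 introns in genes with more than 1 intron, 2 were higher than both and 11 lower, with medians of -0.27 and -0.53. The introns of SUS1, of the SAGA and mRNA export complexes, differed from each other. The first had 1307 RPM in prp8-V1870N, against 1693 and 2240 in prp8-N1869D and 586 in PRP8-WT, and the second had 227, between the 211 and 264 of prp8-N1869D, with 100.2 in PRP8-WT. In VMA9, which encodes a subunit of the vacuolar proton pump, the first intron had 5716 in prp8-V1870N, between 4655 and 6567, and the second 5009, below 6102 and 8766. In PRP8-WT they had 2185 and 2713. Of 11 introns in the 8 genes that host small nucleolar RNAs, 2 were higher and 9 lower, with medians of -0.39 and -0.35. The list takes every intron of these genes, whichever of them holds the RNA. Its 11 lariats are long, from 252 nt upward, so this list ran against the direction of most long introns. Among them ASC1, a ribosome-bound signalling scaffold, had 419 in prp8-V1870N, against 670 and 466 in prp8-N1869D and 457 in PRP8-WT, and EFB1, a translation elongation factor subunit, 750.3 against 769 and 1014, with 998 in PRP8-WT.

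The smaller lists held fewer introns to compare. Of 7 introns in genes of splicing, cap binding and mRNA export, 0 were higher than both and 3 lower, with medians of -0.06 and -0.40. MUD1, of the U1 particle, had 146 RPM in prp8-V1870N, between 141 and 195, with 65.4 in PRP8-WT, and LSM2, of the ring that binds U6, 1107 against 1436 and 1462, with 893 in PRP8-WT. Of 6 introns in genes of mitochondrial proteins, 2 were higher and 3 lower, with medians of -0.48 and 0.11 and an edgeR median of -0.17 over 5. COX4, of cytochrome oxidase, had 514 in prp8-V1870N, against 512 and 267 in prp8-N1869D and 1239 in PRP8-WT. COX5B, another subunit of that enzyme, had 1 annotated read in prp8-V1870N and 0 in the others, and counts as higher on that read alone. An unlisted lariat in COX5B, starting a few nt from the listed site, had 305 reads in prp8-V1870N. It had 144 and 255 in prp8-N1869D and 280 in PRP8-WT. Of 11 introns in meiotic genes, 4 were higher and 3 lower, with medians of 0.05 and 0.04, while the edgeR median over the 5 with enough reads to be tested was -0.21. DMC1, the meiotic recombinase, had 22.6 in prp8-V1870N, between the 14.1 and 23.5 of prp8-N1869D, with 9.53 in PRP8-WT. REC102, of the machinery that cuts meiotic DNA, had 83.2, against 127 and 141 in prp8-N1869D and 57.2 in PRP8-WT. edgeR called 0 members of any list.

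The 5 introns with the most annotated reads show how large the spread between the prp8-N1869D samples can be. snR17a, which encodes the nucleolar RNA U3, had 46548 RPM in prp8-V1870N, between 55172 and 41519 in prp8-N1869D, with 66330 in PRP8-WT. RPS24A, of the small subunit, had 31988 in prp8-V1870N, below the 44982 and 57711 of prp8-N1869D, with 14672 in PRP8-WT. It is a long intron of a ribosomal protein gene, yet its log2 fold change was -0.60 ± 0.55 (SE). PRE3, a catalytic proteasome subunit, had 33476, between 30891 and 41118 in prp8-N1869D, with 17804 in PRP8-WT. RPS30B had 32957, between 34114 and 15937 in prp8-N1869D, with 39986 in PRP8-WT, and RPL29 23885, between 23839 and 33736 in prp8-N1869D, with 13786 in PRP8-WT.

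Set against all annotated reads, short lariats that the intron table does not list were also mostly lower in prp8-V1870N. Against annotated reads outside ribosomal protein genes, short pairs as a class were no longer below both prp8-N1869D samples, as given above. That denominator was not applied to these lariats. Of 49 such lariats of up to 200 nt, with a 5' splice site opening with GT and at least 200 reads over the 3 samples, 31 (63.3%) were lower in prp8-V1870N than in both prp8-N1869D samples and 10 (20.4%) higher. The intervals lay below both in 7 (14.3%) and above both in 2 (4.08%), and the median log2 ratios were -0.12 and -0.18, beside -0.40 and -0.49 in annotated introns under 200 nt. Among all 507 pairs of up to 200 nt with at least 20 reads, edgeR called 0 higher (0.00%) and 0 lower (0.00%), with 12 higher and 22 lower at an unadjusted p under 0.05. BDF2, which encodes a bromodomain protein and whose transcript is known to be cut by the spliceosome, had 4616 RPM in prp8-V1870N, against 5777 and 5310 in prp8-N1869D and 4029 in PRP8-WT. LSB3, which encodes a protein of actin patches, had 3474 in prp8-V1870N, against 5779 and 6183 in prp8-N1869D and 1833 in PRP8-WT. At the branch nucleotide with the most reads, the adjusted p in edgeR was 0.836 for BDF2 and 0.472 for LSB3. Both genes were chosen after their values were seen. Their sequences are shown because their 5' splice sites and branch points read like those of annotated introns. In the branch sequences the capital marks the branch nucleotide with the most reads.
BDF2 5' splice site, chrIV:331179-331208, plus strand: tgtcagcgcgGTAAGTatcgacgatggacc
BDF2 branch point, chrIV:331263-331292, plus strand: cagcggtatcactaAcctgaattcttcatc
LSB3 5' splice site, chrVI:203367-203396, minus strand: gtgagacaaaGTATGTtttatacgggtttg
LSB3 branch point, chrVI:203301-203330, minus strand: ttcatcatttactaActagtaataaacaat

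The distant pairs were then examined one by one. Of 1016 pairs over 1000 nt with at least 20 reads over the 3 samples, 146 (14.4%) had intervals above both prp8-N1869D samples and 36 (3.54%) below both. Over all 2898 pairs outside introns with 20 reads, 234 (8.07%) lay above and 95 (3.28%) below. Among pairs of up to 200 nt, 7 of 507 (1.38%) lay above and 20 (3.94%) below, and among mirror images 18 of 756 (2.38%) above and 27 (3.57%) below. Of 267 pairs of over 200 and up to 1000 nt, 32 (12%) lay above and 8 (3.0%) below. edgeR's quasi-likelihood test, added after seeing the data, called 97 of the 2898 pairs at an adjusted p of 0.05, of which 84 were higher (2.90%) and 13 lower (0.449%). Of these, 61 of the higher (6.0%) and 12 of the lower (1.18%) were among the 1016 distant pairs, and 12 of the higher (4.49%) and 1 of the lower (0.375%) among the 267. The number called fell without the first technical library and rose without the second, by the values given at the end. A pair can pass the minimum of 20 reads through 1 strain alone. Of the 146 higher pairs, 64 had under 20 reads in both prp8-N1869D samples together, and of the 36 lower pairs 19 had under 20 reads in prp8-V1870N.

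**Figure D5:**
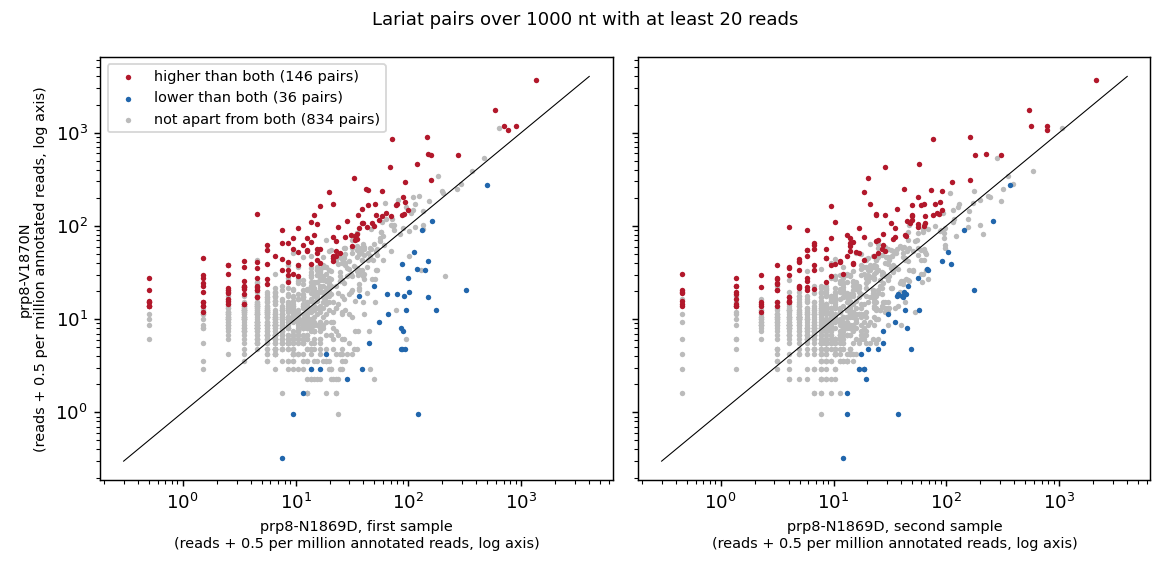
RPM values, with 0.5 reads added, of 1016 pairs over 1000 nt with at least 20 reads over the 3 samples, prp8-V1870N against the first (left) and the second (right) prp8-N1869D sample, on log axes with the line of equal values. The 146 pairs in red lie above both prp8-N1869D samples and the 36 in blue below both. The panels share the prp8-V1870N values.

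The excess of distant pairs was larger at ribosomal protein genes than elsewhere. Pairs with an end in such a gene held 48.8% of the distant reads in prp8-V1870N, against 38.4% and 38.8% in prp8-N1869D and 57.9% in PRP8-WT. Set against annotated reads, they were 1.78 and 1.70 times as frequent in prp8-V1870N as in the first and second prp8-N1869D sample, and all other distant pairs 1.16 and 1.13 times. The share of annotated reads from ribosomal protein genes was also higher in prp8-V1870N, by the values given above, and its part in this difference was not tested. Of the 146 higher pairs, 51.4% had an end in a ribosomal protein gene, as did 5.56% of the 36 lower pairs and 47.8% of the 834 others. Among the higher and lower pairs are those that passed the minimum of 20 reads through 1 strain alone. A few pairs weighed heavily. Without the 20 pairs with the most reads, the distant class stood at 5.02 reads per 100 annotated reads in prp8-V1870N, against 3.94 and 3.99 in prp8-N1869D and 1.10 in PRP8-WT.

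Many distant pairs join places with the same short sequence. Where bases next to the 5' splice site recur next to the branch point, the junction could be set at any of several positions, so that neither end is known exactly. Pairs with at least 4 such shared bases held 30.0% of the distant reads in prp8-V1870N, against 25.5% and 26.2% in prp8-N1869D and 20.3% in PRP8-WT. They were 38.4% of the 146 higher pairs, 13.9% of the 36 lower pairs and 22.7% of the others. The higher and lower sets include pairs that passed the minimum of 20 reads through 1 strain alone. Such pairs were 1.65 and 1.55 times as frequent in prp8-V1870N as in the first and second prp8-N1869D sample, and distant pairs without them 1.31 and 1.28 times. The branch nucleotide was an A in 30.0% of distant reads in prp8-V1870N and in 30.0% and 29.4% in prp8-N1869D, while 84.3%, 83.3% and 85.1% opened with GT.

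The lowest adjusted p belonged to a pair ending in RPS23B, of the small subunit, with its 5' splice site on the opposite strand of ANT1. It had 1333 reads in prp8-V1870N, against 70 and 83 in prp8-N1869D and 49 in PRP8-WT. Per annotated read it was 11.8 times as frequent in prp8-V1870N as in both prp8-N1869D samples summed (interval 9.97 to 14.04), and the adjusted p in edgeR was 0.000218. It stood at 859.9 RPM in prp8-V1870N, against 39.5 and 114 in the technical libraries of the second sample. The 5' splice site of the RPL6B upstream reads also joined a place in the RPL6B intron close to its branch point, with 667 reads in prp8-V1870N, 68 and 31 in prp8-N1869D and 24 in PRP8-WT, a ratio of 9.12 (7.38 to 11.4) with an adjusted p of 0.00177. The RPL6B pair stood at 430 RPM in prp8-V1870N, against 68.5 and 28.0 in prp8-N1869D. Both ratios are against the 2 prp8-N1869D samples summed, so their intervals leave out the gap between those samples. Both pairs were chosen after their values were seen. In the sequences below the capitals mark the 7 bases that both ends share.
RPS23B pair, 5' splice site end, chrXVI:791548-791577, plus strand: actgccagcatcGTTGGAAtggtcatggaa
RPS23B pair, branch end, chrXVI:795106-795135, plus strand: accatgaaatgaGTTGGAAgcttgaaaaag
RPL6B pair, 5' splice site end, chrXII:1027914-1027943, plus strand: acgatccgaatgGTATACTcttttgctagc
RPL6B pair, branch end, chrXII:1029194-1029223, plus strand: agtaaacgagtaGTATACTaactatatatg

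The 5 pairs outside introns with the largest fold upward were read little or not at all in prp8-N1869D. All 5 passed the minimum of 20 reads through prp8-V1870N and were ranked by fold. Their low counts in prp8-N1869D thus follow from how they were picked. A pair on the opposite strand of OPY2 had 31 reads in prp8-V1870N and 0 in both prp8-N1869D samples and in PRP8-WT. Against a floor of 3 reads over both prp8-N1869D samples it was 13.99-fold higher in prp8-V1870N. Folds against a floor leave out the counting error of the reads observed, so they are not lower bounds. A pair from SCW11, which encodes a cell wall protein, had 24 reads in prp8-V1870N and 0 in both prp8-N1869D samples, 10.8-fold higher against that floor. A pair from MGM101, which encodes a mitochondrial DNA repair protein, had 21 reads in prp8-V1870N, 0 in both prp8-N1869D samples and 1 in PRP8-WT. It was 9.48-fold higher than the floor for prp8-N1869D. The other 2 were the RPL25 joins described above, counted here at a single branch nucleotide. From 3144 nt upstream they had 53 reads in prp8-V1870N, against 0 and 3 in prp8-N1869D, a ratio of 23.9 (7.75 to 120) over both samples summed. From 2135 nt upstream they had 23 reads, against 0 and 0, 10.4-fold higher against that floor.

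The 5 pairs with the largest fold downward were all over 1000 nt. One with its branch in HDA3, which encodes a histone deacetylase subunit, had 1 read in prp8-V1870N, against 121 and 41 in prp8-N1869D and 0 in PRP8-WT. One on the opposite strand of BUD2, which acts in bud site selection, had 31 reads in prp8-V1870N, against 322 and 192 in prp8-N1869D and 5 in PRP8-WT, with an adjusted p of 0.00238. One starting in AAT2, which encodes an aspartate aminotransferase, had 7 reads, against 92 and 53 in prp8-N1869D and 1 in PRP8-WT. One starting in RPS27B had 0 reads in prp8-V1870N, against 7 and 13 in prp8-N1869D, at least 4.92-fold lower. The fifth, with its branch in NDJ1, a meiotic telomere gene, had 1 read in prp8-V1870N, against 9 and 14 in prp8-N1869D. All but the BUD2 pair had under 20 reads in prp8-V1870N and so passed the minimum through prp8-N1869D. The technical libraries of the second sample differed widely in these pairs, with 39 reads in the first and 2 in the second for HDA3, 168 and 24 for BUD2, 42 and 11 for AAT2, 9 and 4 for RPS27B, and 13 and 1 for NDJ1. The HDA3 pair stood at 0.645 RPM in prp8-V1870N, against 37.1 in the second prp8-N1869D sample as a whole and 3.82 in its second technical library alone.

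Among pairs with many reads, the one from the opposite strand of RPL31A to VAM6, which encodes a vacuolar tethering factor, had 5714 reads in prp8-V1870N, against 1346 and 2358 in prp8-N1869D and 3702 in PRP8-WT. Its interval lay above both prp8-N1869D samples, and its edgeR log2 fold change of 1.08 ± 0.38 (SE) did not pass, with an adjusted p of 0.158. A pair ending in RPS16A had 2689 reads in prp8-V1870N, against 582 and 596 in prp8-N1869D and 58 in PRP8-WT, with an adjusted p of 0.0174. It stood at 1735 RPM in prp8-V1870N, against 256 and 853 in the technical libraries. A pair of 203 nt on the opposite strand of YLL054C had 2786 reads in prp8-V1870N, against 332 and 154 in prp8-N1869D and 137 in PRP8-WT, with an adjusted p of 0.00177. The last was named after its values were seen, as were the first 2.

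In the mitochondrial genome, whose own introns are not removed by the spliceosome, 26 of 114 pairs with at least 20 reads (22.8%) lay above both prp8-N1869D samples and 0 (0.00%) below both. edgeR called 9 higher (7.89%) and 0 lower (0.00%), with 31 higher and 2 lower at an unadjusted p under 0.05. Reads starting on the opposite strand of COB, the gene of cytochrome b, stood at 20.3 per 10000 annotated reads in prp8-V1870N, against 9.96 and 9.89 in prp8-N1869D and 5.47 in PRP8-WT. Reads starting in COX1, which encodes a subunit of cytochrome oxidase, stood at 15.1 in prp8-V1870N, against 9.63 and 10.3 in prp8-N1869D and 5.34 in PRP8-WT. Mitochondrial pairs were higher at every distance, at 20.9 up to 200 nt in prp8-V1870N, against 12.1 and 11.97 in prp8-N1869D, and at 43.5 over 1000 nt, against 24.4 and 26.6. Distant nuclear pairs were higher in prp8-V1870N as well, and whether both share a source was not tested.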

How the data were processed

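Lariat reads of 1 prp8-V1870N library and of 2 prp8-N1869D samples, the second of which is the sum of 2 technical libraries, were compared with each other, and PRP8-WT was set beside them. Groups were taken from the labels. Per the submitters' processing notes, the authors used Trimmomatic and Bowtie2 with build R64, and name no versions. The deposited tables hold read counts, 1 row for each 5' splice site joined to a branch point, and 1 row for each annotated intron. Intron counts equalled the sum of pairs with the annotated 5' splice site and a branch within 2 nt in 280 of 280 introns. Positions matched the RefSeq genome of build R64: 279 introns open with GT and 279 branch points are A.

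All other pairs were divided as described with their values. edgeR 4.0.16 in R 4.3.3 (glmQLFit and glmQLFTest, Benjamini-Hochberg adjustment) was used with TMM and filterByExpr for introns, with aberrant and annotated columns per sample and their interaction for aberrant ratios, and with annotated reads as library size for pairs. The fits were tested on simulated data. Python 3.11.15 with scipy 1.17.1 gave exact binomial intervals. "Apart from both" means intervals that do not overlap those of either prp8-N1869D sample. Log2 ratios of shares used a pseudocount of 0.5 reads. Alternatives were DESeq2 1.42.0, other scaling, minima and denominators, 99% intervals and leaving out libraries.

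Members and lists were chosen with earlier results of these data known. Named were the 5 largest folds each way among annotated introns with at least 50 reads (none passed), introns apart from both, the 10 with the most aberrant and the 5 with the most annotated reads, the 5 largest folds each way among pairs apart from both, and the first 2 members of each list. Nothing in the sources used here says how strand was assigned.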

Additional observations from a re-analysis of the deposited data

How the results depend on the processing

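Of 48 alternatives, 32 gave about the same value, 15 moved it and 1 reversed the direction. Part of them concern counts of called members, which have no direction. For pairs up to 200 nt, the direction against both samples was also lost with another denominator, as given below. The rate of aberrant 5' splice sites in prp8-V1870N was 0.964 times the geometric mean of the prp8-N1869D samples and became 1.10 once the 5 introns richest in aberrant reads were left out. The cause was not tested. The fold of all unannotated reads, 1.05, became 1.18 with annotated reads outside ribosomal protein genes as the denominator and 1.11 without mirror images, and ranged from 1.03 to 1.07 when a prp8-N1869D library was left out. The fold of pairs over 1000 nt, 1.37, became 1.54 with that denominator, 1.47 for pairs with at least 5 reads and 1.27 without the 20 pairs with most reads, and ranged from 1.33 to 1.42 over the libraries left out. For pairs up to 200 nt the fold of 0.869 became 0.975 with that denominator (0.949 and 1.003 against the first and second sample) and 0.843 for pairs with at least 5 reads. The mitochondrial fold, 1.71, became 1.92 and 1.82 in the same 2 settings. Upstream sites of 300 nt or more went to a fold of 1.33 without RPL25 and RPL6B, in place of 1.72.

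The counts of 0 called introns stayed at 0 under all alternatives run, for annotated shares and for aberrant ratios. edgeR's 97 called pairs outside introns became 85 without technical library 1 of the second prp8-N1869D sample and 161 without technical library 2. The introns apart from both were RPL6B and the second of RPS22B with 99% intervals and without either technical library. Pairs apart from both numbered 329, and 229 with 99% intervals, of which 169 were higher and 60 lower. No paired analysis was possible because the groups share fewer than 2 replicate numbers. Alternatives for distant, short, mitochondrial and upstream reads and the edgeR fit of pairs were chosen after seeing the data. The prp8-V1870N strain has 1 library, so no value says how far a second culture of it would differ.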
